A study of Mus musculus with 4 samples.

Results

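The effector cytokine windows are the intervals around the transcription start sites of 10 genes: Ifng, Tnf, Il4, Il5, Il13, Il17a, Il21, Il22, Il2 and Il10. They were chosen by Ensembl gene identifier, by a rule that uses no read count but was set with earlier results of these data known, and all 10 were found among the 51121 windows of the table. Chromatin of sorted spleen regulatory T cells (Tregs) from C57BL/6 mice was precipitated with an antibody to H3K9me3, trimethylated lysine 9 of histone H3. The KAP1-sufficient cells are headed Foxp3creKAP1+/+ and the KAP1-deficient cells Foxp3creKAP1f/f, a floxed allele. Both groups therefore carry Foxp3cre, a recombinase driven by Foxp3 regulatory sequences. Deletion is thus directed to cells that express or have expressed Foxp3. The headings do not give the insertion site of the recombinase. The sources used here do not give the ages of the mice, the number pooled or the completeness of deletion. Of the 4 libraries described, 2 are inputs without antibody; the table has 1 column per genotype, whose heading does not say whether it is precipitate or input. Each column is read here as the H3K9me3 library of its genotype, from the design text alone.

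Tregs restrain immune responses, and the helper T cell cytokines are held low in them. Foxp3 is known to repress Il2 in particular, and part of the Tregs make IL-10. H3K9me3 marks compacted, silent chromatin. KAP1 (TRIM28) is docked on DNA by KRAB zinc finger proteins and brings in SETDB1, the methyltransferase that deposits this mark; its action is best known at endogenous retroviruses and imprinted genes. Whether the cytokine genes were silent in these cells was not measured: the table holds chromatin reads and no RNA, so neither that state nor the identity of the sorted cells could be checked from markers.

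The start sites are shown for Ifng, which held the most reads over both libraries, Il2, which had the highest ratio between the genotypes, and Il4, to stand for the type 2 cytokines. Each sequence is the 250 bases before the start site at the gene's 5′ end, from RefSeq on GRCm38.p6, the assembly that the name mm10 stands for. Capitals mark GGAAA or its reverse complement TTTCC, the core bound by NFAT factors, and TATAAA or its reverse complement TTTATA, the TATA box. TGANTCA, the AP-1 motif, had no match in these 3 sequences.
Ifng (chr10:118440796-118441045, plus strand): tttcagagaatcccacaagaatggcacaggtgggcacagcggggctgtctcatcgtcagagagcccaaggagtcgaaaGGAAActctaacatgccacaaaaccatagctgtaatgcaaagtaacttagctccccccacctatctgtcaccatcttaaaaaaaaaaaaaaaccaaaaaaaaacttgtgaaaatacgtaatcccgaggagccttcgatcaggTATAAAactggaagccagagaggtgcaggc
Il2 (chr3:37125955-37126204, minus strand): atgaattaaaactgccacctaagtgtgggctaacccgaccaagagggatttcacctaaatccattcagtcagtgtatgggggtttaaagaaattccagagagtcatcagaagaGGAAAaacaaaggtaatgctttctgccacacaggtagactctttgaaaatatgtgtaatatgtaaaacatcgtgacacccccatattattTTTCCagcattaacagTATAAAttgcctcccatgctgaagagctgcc
Il4 (chr11:53618666-53618915, minus strand): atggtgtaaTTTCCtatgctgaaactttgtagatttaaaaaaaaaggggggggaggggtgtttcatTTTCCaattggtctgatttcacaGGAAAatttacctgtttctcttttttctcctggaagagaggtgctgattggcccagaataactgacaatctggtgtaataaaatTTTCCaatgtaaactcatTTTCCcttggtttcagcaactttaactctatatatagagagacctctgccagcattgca
In Ifng the TATA box began 30 bases before the start, and in Il2 it began 31 bases before it. Il2 also held TTTCC from 47 to 43 bases before the start. Il4 had 5 matches to GGAAA and no exact TATAAA. Only exact matches were marked, so other TATA-like stretches were not. A further RefSeq start of Il4, 1327 bases inside the gene, had 0 matches to GGAAA. Which start the Il4 window surrounds is not known.

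Most of the cytokine upstream sequences held fewer CG, the dinucleotide that is dense in housekeeping promoters, than the median promoter; Ifng was at that median and Tnf above it. RefSeq start sites were matched by symbol for 9 of the 10 genes, Il10 being the exception, and lay at the annotated 5′ end of the gene for 8 of them. The entry for Il22 starts 380 bases inside its gene and was not used in the counts of this paragraph. In the 8 upstream sequences the count of CG ranged from 0 in Il4 to 10 in Tnf, with a median of 3.5. The median over 32851 promoters of the same length was 6. Unlike the 8 sequences, these promoters were not limited to starts at the 5′ end of a gene, so the sets compared here are not alike. Of the 8 cytokine sequences 6 were under this median, as were 49.6% of all promoters. TATAAA on either strand was found in 5 of the 8 (Ifng, Tnf, Il13, Il17a and Il2) and in 12.4% of all promoters. GGAAA was found in 7 of the 8, all but Il17a, and in 55.6% of all promoters. TGANTCA was found in 1, Il17a, and in 6.75% of all promoters. These are matches of letters, and none of them overlapped another motif in the sequences printed. No coordinate of the windows themselves is in the table, so how far each window extends over these bases is not known.

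As a set, the cytokine start sites divided their reads between the libraries at close to the ratio of all windows. Summed over the 10 windows, the KAP1-sufficient library held 133 reads and the KAP1-deficient library 65. The libraries held 480326 and 228009 reads over all windows, so the former was 2.11 times deeper. Scaled to these totals, the pooled ratio of KAP1-deficient to KAP1-sufficient reads was 1.03, with an exact 95% interval of 0.75 to 1.40. The set thus took 32.8% of its reads from the KAP1-deficient library (26.3 to 39.8), which supplied 32.2% of reads over all windows. A pooled ratio of 0.71 or less, or of 1.37 or more, would have placed the library share outside the interval at 198 reads. Ratios in this text are depth-scaled in this way unless stated, and their intervals are conditional binomial (Clopper-Pearson) ones that cover counting error only. With 1 library per genotype there is no spread between replicates and no test, and genotype and library cannot be told apart. Scaling to totals also removes any difference in total H3K9me3.

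Among the type 1 cytokines, reads at Ifng were on the high side in the KAP1-deficient library and reads at Tnf were level. Ifng encodes interferon-gamma, which activates macrophages. The window of Ifng (ENSMUSG00000055170) held 17 reads with KAP1 and 14 without it. Per 100000 reads in windows this was 3.54 (95% Poisson interval 2.06 to 5.67) and 6.14 (3.36 to 10.3), so the intervals overlapped. The ratio was 1.73 with an interval of 0.79 to 3.74. In the KAP1-deficient library Ifng lay at the 98.0th percentile of all windows by reads, against the 89.3rd percentile in the KAP1-sufficient library. At its total of 31 reads, 16 or more from the KAP1-deficient library would have been needed for an interval above 1. Tnf encodes tumour necrosis factor, a general inflammatory cytokine, and its window (ENSMUSG00000024401) held 20 and 9 reads. Its ratio was 0.95 (0.38 to 2.18). The pooled ratio of this pair was 1.31 (0.74 to 2.26) on 60 reads. Against windows of like total reads the ratios were 1.49 at Ifng, 0.81 at Tnf and 1.12 for the pair. Of 1457 windows with 17 KAP1-sufficient reads, 77 (5.28%) had 14 or more in the KAP1-deficient library. Such shares are given only for the highest and lowest ratios of the set (Ifng, Il2, Il10 and Il22), each in its own direction. Small shares follow in part from that choice.

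**Figure D1:**
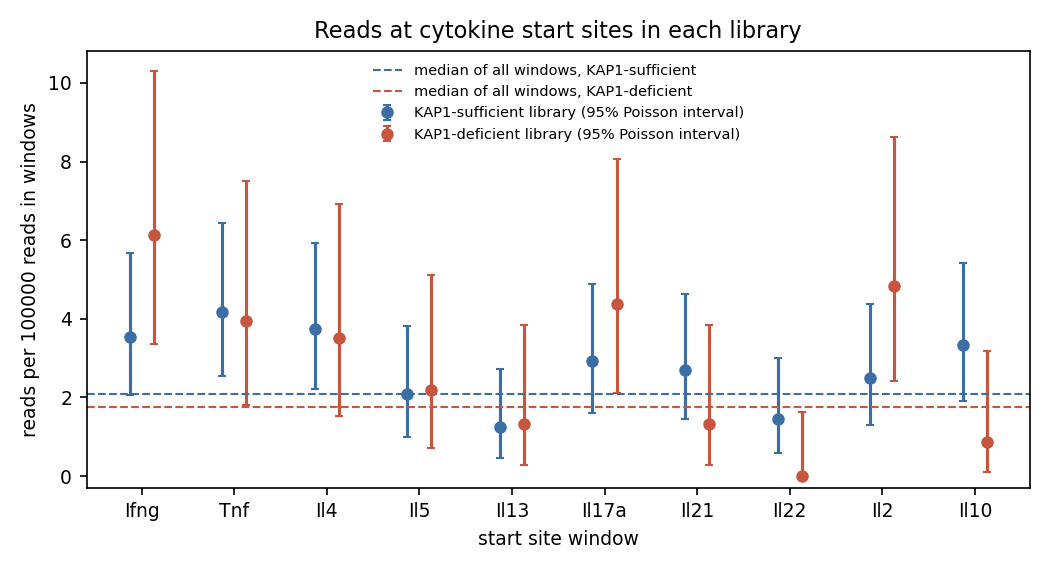
Reads of each cytokine window per 100000 reads in windows, in the KAP1-sufficient (blue) and KAP1-deficient (red) library; points are 1 library each, bars are 95% Poisson intervals and dashed lines are the medians of all windows. The intervals of the libraries overlap in all 10 windows, and Ifng in the KAP1-deficient library is the highest point at 6.14.

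The type 2 cytokine windows each had a ratio close to 1, with wide intervals. Il4 (ENSMUSG00000000869), whose product drives type 2 helper differentiation, held 18 KAP1-sufficient and 8 KAP1-deficient reads, a ratio of 0.94 (0.35 to 2.26). Il5 (ENSMUSG00000036117), which encodes the growth factor of eosinophils, held 10 and 5 reads, a ratio of 1.05 (0.28 to 3.38). Il13 (ENSMUSG00000020383), whose product acts on epithelium and mucus-forming cells, held 6 and 3 reads, also a ratio of 1.05 (0.17 to 4.93). The 3 genes lie in one cluster on chromosome 11. In it the start sites of Il4 and Il13 are 16.0 kb apart and those of Il13 and Il5 86.1 kb apart. Their levels were spread as point values: Il4 was at the 91.9th percentile of all windows in the KAP1-sufficient library, Il5 at the 53.3rd and Il13 at the 29.3rd. The intervals of the ratios are too wide to say that the ratios differed less than the levels. Pooled, the cluster gave 34 and 16 reads and a ratio of 0.99 (0.51 to 1.85). A ratio of 0.46 or less, or of 1.94 or more, would have been needed for its interval to exclude 1. Against windows of like total reads the ratios were 0.80 at Il4, 1.12 at Il5, 1.17 at Il13 and 0.94 for the cluster.

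The type 17 cytokines and their relatives were spread on both sides of the library ratio. Il17a (ENSMUSG00000025929), whose product draws neutrophils to tissue, held 14 KAP1-sufficient and 10 KAP1-deficient reads, a ratio of 1.50 (0.60 to 3.64). Il21 (ENSMUSG00000027718), made by follicular and type 17 helper cells to help B cells, held 13 and 3, a ratio of 0.49 (0.09 to 1.77). Il22 (ENSMUSG00000074695), whose product acts on epithelial barriers, held 7 reads and 0. A count of 0 allows up to 3 reads (a one-sided limit), and the interval of the Il22 ratio, which covers counting error on both sides, reached up to 1.46. Of 2920 windows with 7 KAP1-sufficient reads, 102 (3.49%) were at 0 in the KAP1-deficient library. The Il22 value is uncertain for another reason, since the gene copy Iltifb lies 79.6 kb away on chromosome 10. The longest exact run shared by their RefSeq start site entries, at any position, was 30 bases. The Il22 entry starts 380 bases inside its gene, so this run does not measure likeness at the gene's 5′ end. The sources used here do not say how reads that fit both copies were treated. The pooled ratio of Il17a, Il21 and Il22 was 0.81 (0.39 to 1.57), on 34 and 13 reads.

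The windows of Il2 and Il10 stood at opposite ends of the set among those with reads in both libraries. Il2 (ENSMUSG00000027720), the T cell growth factor that Tregs take up and do not make, held 12 reads in the KAP1-sufficient library and 11 in the KAP1-deficient one. Its ratio was the highest of the 10 at 1.93 (0.77 to 4.78). Of 3164 windows with 12 KAP1-sufficient reads, 161 (5.09%) had 11 or more in the KAP1-deficient library. Il10 (ENSMUSG00000016529), the anti-inflammatory cytokine, held 16 reads and 2. Its ratio was 0.26, with an interval of 0.03 to 1.12 that still included 1; 1 read or fewer would have been needed for an interval below it. Of 1763 windows with 16 KAP1-sufficient reads, 126 (7.15%) had 2 or fewer in the KAP1-deficient library. The point values of Il2 and Il10 lay in opposite directions, and their pooled ratio of 0.98 (0.47 to 1.95) lay between them. It was inside the interval of each window. Il2 and Il21 neighbour each other on chromosome 3, with start sites 107 kb apart, and their ratios of 1.93 and 0.49 also lay on opposite sides of 1. Both intervals included 1.

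**Figure D2:**
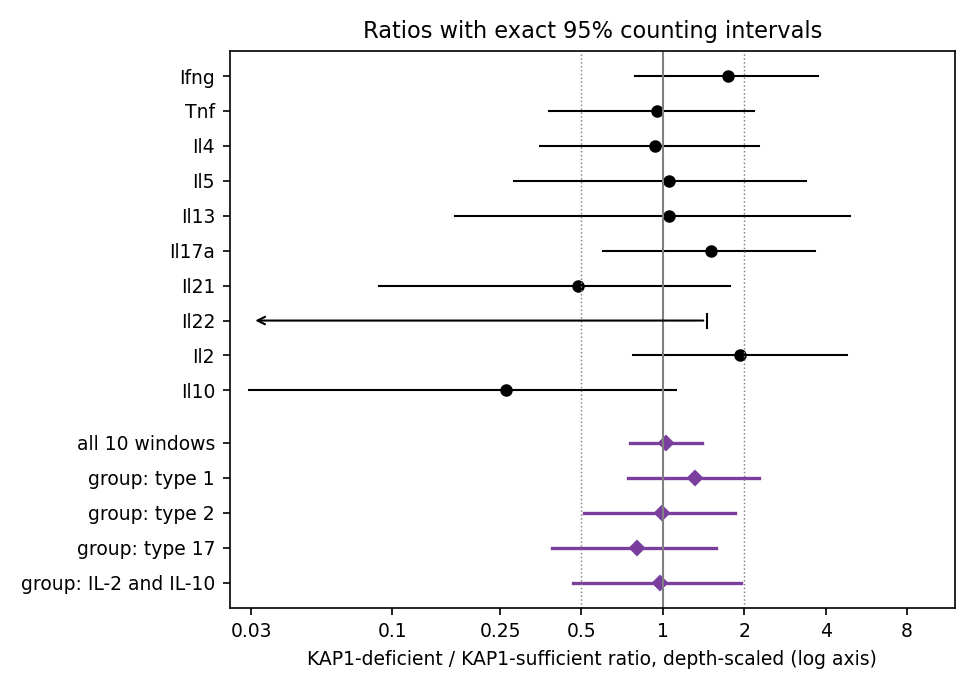
Depth-scaled ratio of KAP1-deficient to KAP1-sufficient reads (log axis) for each cytokine window (circles) and for pooled windows (diamonds), with exact 95% counting intervals; Il22 has 0 KAP1-deficient reads and is drawn as its upper limit of 1.46 with an arrow. All intervals cross 1, and that of all 10 windows runs from 0.75 to 1.40.

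Of the 10 windows, 5 had a ratio over 1 (Ifng, Il5, Il13, Il17a and Il2) and 5 a ratio under 1 (Tnf, Il4, Il21, Il10 and Il22). The windows were then read by the rule applied to all windows, which requires an average of 5 reads or more over both libraries and adds 2 reads, scaled to library size, before the log2 ratio. It kept 8 of the 10. Il13 with 9 reads in all and Il22 with 7 did not pass. This filter counts reads of both libraries, so it selects in part on the KAP1-deficient count. Il22 held 0 KAP1-deficient reads, where the library ratio would give 3.32. Il10, at a log2 ratio of -1.43, was the single cytokine window at least 2-fold lower, and 0 were at least 2-fold higher. Among all 35540 windows past the filter, 8.72% were at least 2-fold lower and 5.26% at least 2-fold higher, so 1 of 8 is near the background. The interval excluded 1 in 0 of the 8, against 4.47% of all windows past the filter, and 0 of the 8 combined this with a 2-fold difference, against 4.30%. The median log2 ratio of the 8 was -0.0042, and that of all windows past the filter was -0.05. Next to the 2-fold line on its inner side stood Il2 at 0.82 and Il21 at -0.80.

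**Figure D3:**
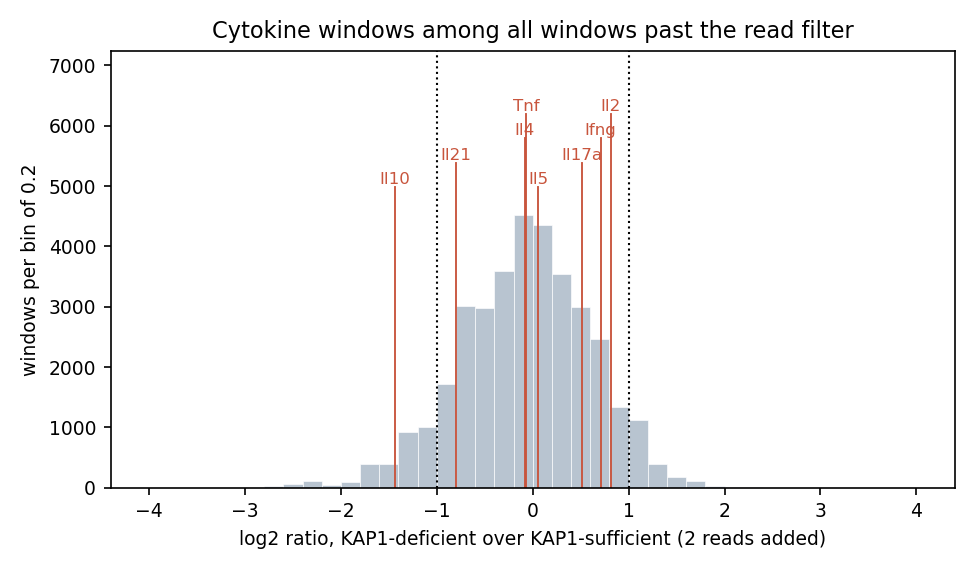
Histogram of the log2 ratio (KAP1-deficient over KAP1-sufficient, 2 reads added) of the 35540 windows averaging 5 reads or more, with the 8 cytokine windows that passed drawn as red lines and the 2-fold lines dotted. Il10 at -1.43 lies beyond the lower line, at the 3.18th percentile, and Il2 at 0.82 lies at the 91.1st.

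In level, the cytokine windows of the KAP1-sufficient library ran from the 29.3rd percentile of all windows at Il13 to the 95.6th at Tnf. They held a mean of 13.3 reads in the KAP1-sufficient library and 6.5 in the KAP1-deficient library. Over the 44974 windows with at least 1 read in either library, the means were 10.7 and 5.07. In the KAP1-sufficient library 7 of the 10 exceeded the all-window median of 10 reads, as did 43.3% of all windows. In the KAP1-deficient library 6 of the 10 exceeded the median of 4 reads, as did 44.4% of all windows. Apart from the top 2 windows of each library, the highest counts in the table were 46 and 36, so Tnf with 20 and Ifng with 14 were well below them. Without an input these levels cannot be read as enrichment of H3K9me3.

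The order of levels within the set was loose. In the KAP1-sufficient library it ran Tnf, Il4, Ifng, Il10, Il17a, Il21, Il2, Il5, Il22, Il13. In the KAP1-deficient library it ran Ifng, Il2, Il17a, Tnf, Il4, Il5, then Il13 and Il21 at 3 reads each, Il10 and Il22. None of the 9 neighbouring pairs in either order had a counting interval of their ratio that excluded 1. Pairs farther apart in the order did in part. Tnf held 3.33 times the reads of Il13 in the KAP1-sufficient library (1.29 to 10.1), and over all 45 pairs 5 intervals excluded 1 there and 10 in the KAP1-deficient library, with no adjustment for the number of pairs. Levels are compared here as reads per window, on the reading that all windows have one width, which the sources used here do not state. Pairs of counts this small recur among 51121 windows, so their recurrence says nothing about these genes. For scale, 22 windows, Ifng included, held exactly 17 and 14 reads, and 84, Il10 included, held 16 and 2. Among the 10 members the pair of Ifng recurred least and that of Il5 most, in 538 windows.

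**Figure D4:**
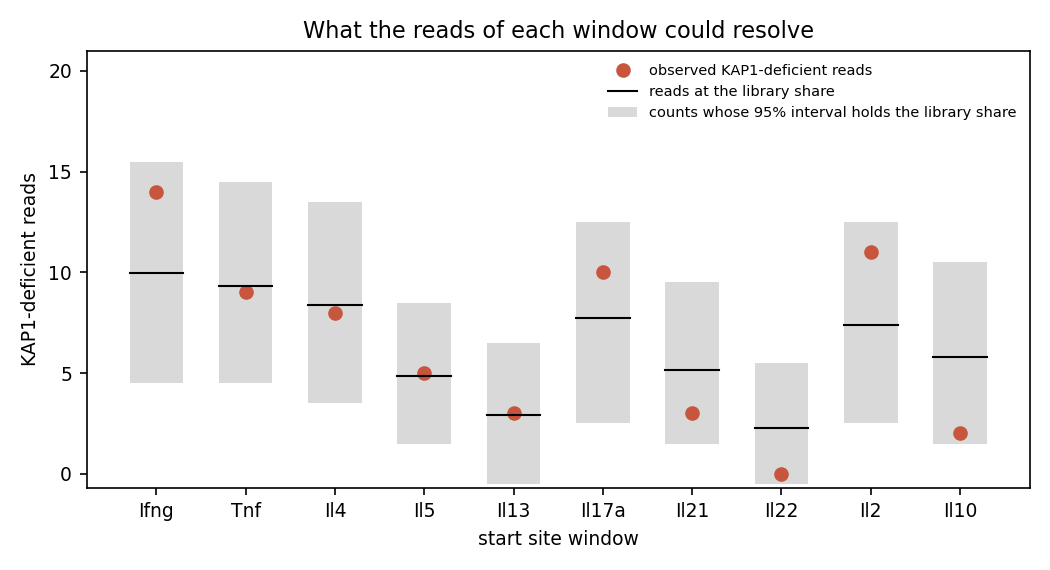
KAP1-deficient reads observed in each cytokine window (red points) beside the range of counts that the window's total reads could not tell from the library share (grey, exact 95% interval) and the count at that share (black line). All 10 points fall inside their grey range, and Il10 at 2 and Il22 at 0 are each at the lowest count of their range.

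The smallest difference each window could have shown was large. At fixed total reads, a fall in the KAP1-deficient library had to reach a ratio of 0.34 or less at Tnf, 0.31 at Ifng, 0.27 at Il4 and 0.12 at Il10 for the interval to lie below 1. At Il13 and Il22 no fall could be shown, even to 0 reads. In the other direction the needed ratio was 2.25 or more at Ifng, 2.26 at Tnf, 2.74 at Il2 and 7.37 at Il13. For a single cytokine window an observed 2-fold difference was therefore not detectable at this depth in either direction. For the pooled set it would have been, since a ratio of 0.71 or less, or of 1.37 or more, was enough. The observed interval of 0.75 to 1.40 held neither 0.5 nor 2. This holds for a difference shared by the windows and for counting error only, since differences in opposite directions cancel in the pooled ratio.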

How the data were processed

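The deposited table, per the file headers, holds unnormalized read counts per start site window of 51121 Ensembl genes, with 1 column per genotype. The submitters' processing notes name Bowtie2 2.2.9, Picard 2.1.1, bedtools 2.26.0 and mm10; the sources used here do not give their roles, the window width, the annotation or any duplicate or mapping filter. A strict mapping filter would lower counts in copied sequence, and windows that lie close could share reads.

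Counts were scaled to library totals. Ratios carry exact 95% intervals and levels Poisson ones. The members and lists were chosen with earlier results of these data known, and all 10 members are named. Identifiers were paired with symbols by the member list; 0 of the gene table's entries hold an Ensembl identifier, so the other cytokine, receptor, lineage factor and cell marker lists are not reported. Promoters come from RefSeq (GRCm38.p6). The printed promoters were to be those of the extremes in reads and ratio, then Ifng and Il4; Il22 was left out because its entry starts inside the gene. No column was left unused (0). Tools were Python 3.11.15 with pandas 2.3.3, scipy 1.17.1, matplotlib 3.10.9 and numpy 2.4.6.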

Additional observations from a re-analysis of the deposited data

How the results depend on the processing

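The pooled ratio of 1.03 was 1.06 with scaling by the median of ratios, 1.03 without the 2 most-read windows of the table and 0.98 against windows of like total reads. With each cytokine window left out in turn it lay between 0.93, without Ifng, and 1.13, without Il10. The single window at least 2-fold lower, Il10, was 1 under each scaling and with 0.5 reads added. Of all windows past the filter, 14.0% to 14.4% were 2-fold apart in either direction under these scalings. With 0.5 reads added the share was 20.6%. The count was 0 with 10 reads added, beside 0.63% of all windows in either direction. It was 0 with a mean of at least 10 reads, beside 11.4% of all windows in either direction. This filter was passed by 5 windows and not by Il10. The median log2 ratio of the 5 was 0.51 in place of -0.0042, beside 0.06 in place of -0.05 for all windows. The filter counts reads of both libraries, so it selects in part on the KAP1-deficient count. Il2 passed with 12 and 11 reads, and Il10 failed with 16 and 2. The value of 0.51 is therefore not read as a result about the cytokine windows. With no filter the count was 2 of 10, as Il22 joined Il10, beside 15.6% of all windows in either direction. Under none of these settings was a cytokine window 2-fold apart with an interval excluding 1. No paired analysis was possible because there is only 1 library of each genotype. Lists of other cytokine genes were not run, because their identifiers were not paired with symbols.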
